A study of Mus musculus with 6 samples.

Results

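The genes that make retinoic acid, carry it, break it down and bind it as receptors were followed in the presomitic mesoderm, the unsegmented tissue of the tail from which somites bud. The 9 genes Rdh10, Dhrs3, Aldh1a2, Crabp1, Crabp2, Cyp26a1, Rara, Rarb and Rarg were taken by symbol, and each was read through its brightest single-gene probe. Of these, 8 have such a probe, 1 each, among 13840 named genes and 33012 probes, and Rara has none and was not analysed here. Tissue came from mouse embryos at embryonic day 10.5 (stage 10.5). Knockout embryos carried LacZ in place of the Nrarp coding region, put there by homologous recombination, and their littermate wild-type embryos came from the same crosses of heterozygous parents. Nrarp is a small ankyrin-repeat protein that Notch signalling induces and that feeds back on it. Each genotype has 3 one-colour arrays, numbered 1 to 3. In all, 12 presomitic mesoderms were collected per genotype, and how they were divided among the arrays is not stated. The p-values therefore cover no more than the spread among these arrays, part or all of which may be technical.

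Retinol is oxidised to retinaldehyde and then to retinoic acid, a small lipid that enters the nucleus and binds receptors that sit on DNA as dimers with retinoid X receptors. In the trunk of the embryo it is made in the somites and the anterior presomitic mesoderm, and it is degraded in the tailbud, where FGF and Wnt signals are strong. The resulting gradient is known for its part in body axis extension and in keeping somite formation even on the left and right sides. Several genes of the pathway are themselves induced by retinoic acid, among them Rarb, Cyp26a1 and Dhrs3.

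The best known sequence of this feedback is a retinoic acid response element made of a pair of half-sites in the same orientation, 5 bases apart, called DR5. Promoter sequences were available in the RefSeq table (GRCm38.p6, 250 bases before to 50 bases after an annotated start) for 7 of the 9 genes, in 13 promoters. The search accepted AGGTCA, the consensus half-site of this family of nuclear receptors. It also accepted the known variant AGTTCA, which occurs in natural elements. A further accepted form was GGGTCA, and the last one was GGTTCA. Any combination of these forms counted, and both strands were searched. Of 32851 mouse promoters, 32 (0.0974%) hold a DR5 match, and 1 promoter each of Rarb and Cyp26a1 is among them. In the other 5 genes no match lies in these windows, which says nothing of binding elsewhere. The 2 promoters are shown because both genes are known to be induced by retinoic acid and their windows hold a match, which capitals mark. The Rarb promoter lies at chr14:16575427-16575726 on the minus strand, with the match 53 to 37 bases before the start. The Cyp26a1 promoter lies at chr19:37697558-37697857 on the plus strand, with the match 32 to 16 bases before the start and its half-sites reading on the opposite strand. Matches with 2 or 1 bases between the half-sites occur in 0.268% and 0.222% of all promoters and in none of the 13.
Rarb: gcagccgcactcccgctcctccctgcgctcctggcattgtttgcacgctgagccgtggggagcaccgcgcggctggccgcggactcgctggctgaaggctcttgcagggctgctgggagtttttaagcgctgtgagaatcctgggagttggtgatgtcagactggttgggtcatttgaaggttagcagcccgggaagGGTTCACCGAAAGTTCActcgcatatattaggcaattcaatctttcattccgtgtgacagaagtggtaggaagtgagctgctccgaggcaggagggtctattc
Cyp26a1: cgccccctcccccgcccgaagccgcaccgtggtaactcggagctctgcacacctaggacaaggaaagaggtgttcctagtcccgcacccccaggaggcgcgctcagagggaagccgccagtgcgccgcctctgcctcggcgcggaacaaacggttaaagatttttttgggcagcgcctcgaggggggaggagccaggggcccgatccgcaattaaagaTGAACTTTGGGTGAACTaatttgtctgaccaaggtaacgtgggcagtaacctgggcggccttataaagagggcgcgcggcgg

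All values are scaled probe intensities, in which the median probe of each array reads just under 1 (0.981 to 0.993). Array sums lay between 1020000 and 1125000. Brightness differs between probes for the same amount of RNA, so levels are compared across arrays for 1 gene at a time and not between genes. The targeted gene Nrarp read 26.7 ± 14.4 in the knockout and 398 ± 70.2 in wild type (SD, n = 3 each), a fold of 16.3 lower (limma adjusted p = 0.428, and 0.00042 with replicate number as a block). Whether its probe lies in the replaced part is not given. The presomitic marker Tbx6 was bright on every array (487, 848 and 802 in the knockout, 416, 745 and 657 in wild type), and so was the somite marker Meox1 (397, 450 and 431 in the knockout, 284, 407 and 439 in wild type). The replicate 1 arrays of both genotypes stood apart, with a 75th to 10th percentile ratio of 56.9 in the knockout and 42.7 in wild type against 12.4 to 16.0 on the other 4 arrays. Values are therefore also given within replicate 1 and within replicates 2 and 3.

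None of the 8 genes passed the test between genotypes. In the limma fit on genotype, 0 of 8 had an adjusted p under 0.05, where 0 of 33012 probes (0%) did. With the replicate number as a block, a term that takes out differences between replicates, 0 of 8 passed, where 2 probes (0.00606%) did, those of Nrarp and of the Notch target Hes5. At an unadjusted p under 0.05, 0 of 8 were reached without the block, where 217 probes (0.657%) were. With the block 2 of 8 were, Aldh1a2 and Rdh10, where 1238 probes (3.75%) were. Groups without overlap were found for 0 of the 8 genes, beside 3.78% of all probes, a share too small for 8 genes to show a difference from it. In 3 of 8 genes the difference had 1 sign in all 3 replicate pairs, Aldh1a2 and Dhrs3 upwards and Cyp26a1 downwards, against 23.7% of all probes. The numbers 2 and 3 could also be matched crosswise, and 2 of 8 genes, Aldh1a2 and Cyp26a1, kept 1 direction in replicate 1 and in every matching of the others, against 15.5% of all probes. By the difference of mean log2 intensities, Aldh1a2, Dhrs3 and Rarb were higher in the knockout and the other 5 genes lower, with a median of -0.05, beside -0.01 over all probes. The plot of intensities by array shows each gene's 6 values.

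**Figure D1:**
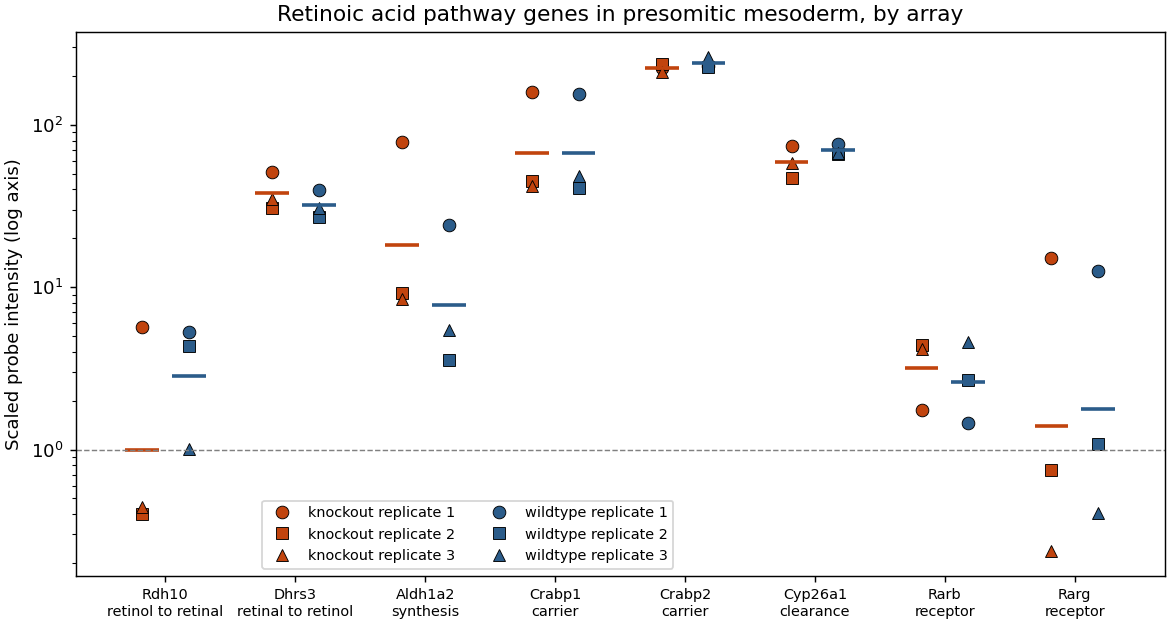
Scaled probe intensity (log axis) of the 8 measured retinoic acid genes, with 3 knockout arrays left of 3 wildtype arrays for each gene; symbols mark the replicate number, bars the geometric mean, and the dashed line an intensity of 1. All genes but Rarb and Crabp2 read highest on the replicate 1 arrays of both genotypes, and Crabp2 stays between 213 and 262 on all 6 arrays.

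Synthesis begins with Rdh10, the dehydrogenase that turns retinol into retinaldehyde and is the main such enzyme of the early embryo. Its intensity was 5.65, 0.398 and 0.440 on knockout arrays 1 to 3, against 5.28, 4.35 and 1.00 on wild-type arrays 1 to 3. Both replicate 1 arrays read alike, whereas knockout replicates 2 and 3 lay below the array median and below both wild-type arrays of these numbers. The log2 difference was -1.51 (SE 1.12, and 0.601 with the block), with a 95% interval of -2.88 to -0.15 in the blocked fit (limma adjusted p = 1.00, and 0.9995 in the blocked fit). Within replicate 1 it was 0.10, and within replicates 2 and 3 it was -2.32, a fold of 4.99 lower (limma adjusted p = 0.995). The readings of knockout replicates 2 and 3 were close to the 10th percentile of their arrays (0.396 and 0.368), so the size of this fold is uncertain. Leaving out single arrays moved the log2 difference between -2.77 (without knockout replicate 1) and -0.85 (without knockout replicate 2). With 1 added to each value before log2 it was -0.78, the smallest in size of the 20 fits. Rdh10 thus read below the array median on 2 of the 6 arrays, and its negative sign rests on replicates 2 and 3.

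Dhrs3 encodes the reductase that turns retinaldehyde back into retinol and so limits the pathway at its first step. It read 51.4, 30.9 and 35.2 on the knockout arrays, against 39.9, 27.1 and 30.9 on the wild-type arrays. Each knockout array was above the wild-type array of the same number, but wild-type replicate 1 lay above knockout replicates 2 and 3, so the groups overlapped. Dhrs3 differed by 0.25 on the log2 scale (SE 0.318, and 0.123 with the block), with a blocked 95% interval of -0.03 to 0.53 (limma adjusted p = 1.00 and 0.9995). In the 3 pairs it was 0.37, 0.19 and 0.19. It was 0.03 without knockout replicate 1, 0.12 without wild-type replicate 2, and 0.40 without knockout replicate 2 or without wild-type replicate 1.

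Aldh1a2, the dehydrogenase that makes retinoic acid in the mesoderm, showed the largest positive difference of the 8 genes. It read 78.5, 9.22 and 8.46 on the knockout arrays, against 24.3, 3.57 and 5.48 on the wild-type arrays. Wild-type replicate 1 lay above knockout replicates 2 and 3, so the groups overlapped as a whole. Within replicate 1, and among the 4 arrays of replicates 2 and 3, each knockout array was above each wild-type array. The log2 difference was 1.23 (SE 1.01, and 0.217 with the block), a fold of 2.34 with a blocked 95% interval of 1.66 to 3.30. The limma adjusted p over all probes was 1.00 without and 0.9995 with the block, where the gene ranked 9 of 33012 by p. The exact permutation test of 3 against 3 arrays gave p = 0.5 (two-sided), where 0.1 is the smallest possible. The fold was 3.23 within replicate 1 and 2.00 within replicates 2 and 3 (limma adjusted p = 0.995, and 0.783 with the block).

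The size of the Aldh1a2 difference depended on single arrays and on scaling. Its log2 difference was 0.18 without knockout replicate 1 and 2.05 without wild-type replicate 1, and it was positive in all 20 fits. The block, the intensity trend and the choice of probes leave this estimate unchanged, so these fits are not 20 separate checks of its sign. With the block, centring each array on its 75th percentile gave 1.28 and the smallest adjusted p of these fits, 0.151 in limma. A change in the number of cells with a transcript and a change in transcript per cell cannot be told apart in bulk tissue, here and below.

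Aldh1a2 is also known in neighbouring mesoderm, so marker lists of those tissues were read beside it. The summed intensity of 15 measured somite and anterior presomitic markers was 994, 1048 and 1031 in the knockout, against 848, 977 and 1010 in wild type. That of 13 lateral plate and limb bud markers was 26.3, 41.0 and 39.8 in the knockout, against 24.4, 37.4 and 42.2 in wild type. That of 9 intermediate mesoderm markers was 41.3, 19.5 and 20.5 in the knockout, against 35.9, 22.9 and 15.8 in wild type. The somite sum was higher in the knockout in each replicate pair, by less than the Aldh1a2 fold, and the other sums had no single direction. By gene, mean log2 intensity was higher in the knockout for 7 of the 15 somite markers (median difference -0.08), 5 of the 13 lateral markers (-0.16) and 6 of the 9 intermediate markers (0.16), so the somite sum and median differ in sign. The somite sum follows its bright members, among them Meox1 and Mesp2, a factor of the forming segment border that averaged 90.4 in the knockout and 63.1 in wild type. Bright members did not all go 1 way, as Foxc2 averaged 347 in the knockout and 330 in wild type, and Tcf15 averaged 108 and 120.

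Single markers of the neighbouring tissues did not share 1 direction. Pitx1, a factor of the hindlimb field, read 7.64, 14.8 and 17.0 in the knockout, against 5.71, 9.46 and 8.93 in wild type. Like Aldh1a2 it was higher in the knockout in each replicate pair (log2 difference 0.67, limma adjusted p = 1.00, and 0.9995 with the block), though without the high replicate 1 readings. Isl1, another lateral plate factor, differed by -0.27 and the limb factor Lhx9 by -1.56, while Sall1 and Gata3 of the intermediate list differed by 0.19 and 0.16. Lhx9 was dim, at 0.189, 0.791 and 1.75 in the knockout, against 1.46, 1.42 and 3.24 in wild type. Its knockout replicates 1 and 2 lay below the array median, so the size of its difference is uncertain. Dim markers were Tbx5 and Tbx4 of the limb fields, at most 0.656 and 0.482 on any array, and Wt1 and Osr1 of the intermediate mesoderm and its derivatives, at most 1.48 and 1.45, all 4 named after their values were seen. Others read higher, with Isl1 at 8.68 to 18.8, Sall1 at 2.77 to 27.0 and Gata3 at 3.45 to 11.0. By mean level, 5 of the 13 lateral and 4 of the 9 intermediate markers lay above the median of all probes. Probes differ in brightness, so these readings do not show whether such tissue was present. None of the markers in these 3 lists passed the test in either fit. The part of these tissues in the Aldh1a2 values was not tested.

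**Figure D2:**
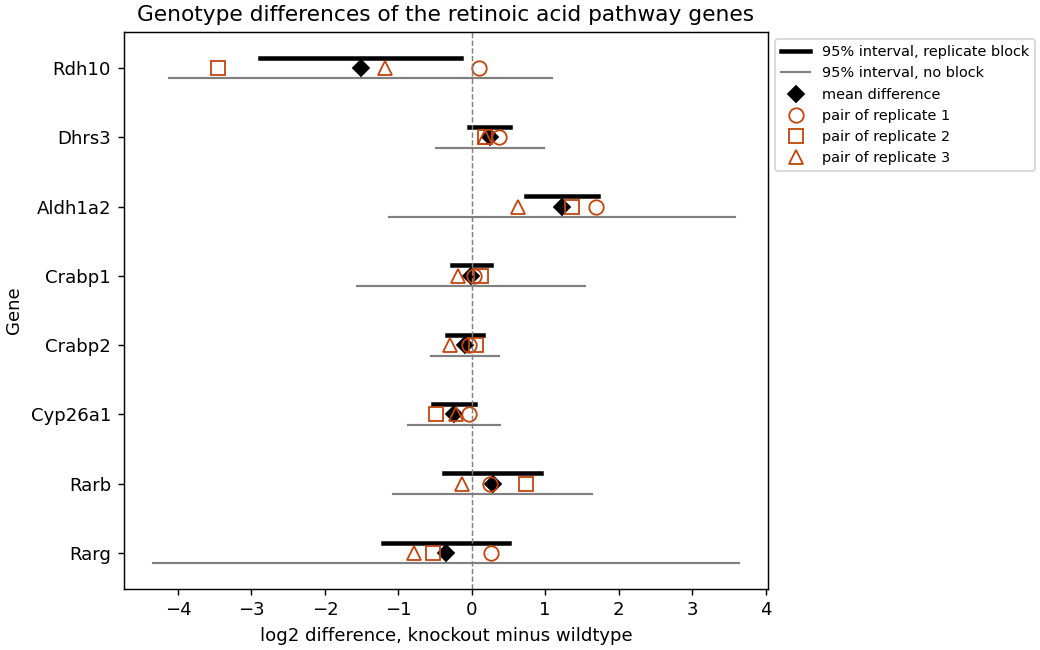
Differences between knockout and wildtype (log2, horizontal axis) of the 8 genes: diamonds are means over 3 arrays a group, open symbols the 3 replicate pairs, black bars the 95% interval with the replicate block and grey bars that without it. Aldh1a2 lies to the right of 0 in all 3 pairs, and the intervals without the block include 0 for every gene.

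The mean intensities of the intracellular carriers were close between genotypes. Crabp2, which hands retinoic acid to its nuclear receptors, read 225, 236 and 213 on the knockout arrays, against 231, 226 and 262 on the wild-type arrays. These 6 values lie within a ratio of 1.23 between the highest and the lowest, the narrowest range of the 8 genes. Crabp2 differed by -0.09 on the log2 scale, with a blocked 95% interval of -0.33 to 0.15 (limma adjusted p = 1.00 and 0.9995). Without the block the interval was -0.56 to 0.38.

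Crabp1, a carrier that holds retinoic acid in the cytoplasm and favours its breakdown, read 159, 44.9 and 42.3 on the knockout arrays, against 155, 41.0 and 48.3 on the wild-type arrays. The replicate 1 arrays were high in both genotypes, and the genotypes were close within every number. The log2 difference was -0.01 (blocked 95% interval -0.27 to 0.26, limma adjusted p = 1.00 and 0.9995), and its sign turned to 0.04 with centring on 75th percentiles. Without the block the SE was 0.667 and the 95% interval -1.56 to 1.54, so the narrow range for Crabp1 depends on the block. As ratios, the blocked intervals span 0.793 to 1.11 for Crabp2 and 0.827 to 1.19 for Crabp1.

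Cyp26a1 encodes the cytochrome P450 that degrades retinoic acid in the tailbud and keeps it out of the posterior end. It read 74.0, 47.3 and 58.0 on the knockout arrays, against 75.9, 66.1 and 67.0 on the wild-type arrays. The replicate 1 arrays were nearly equal, and in replicates 2 and 3 both knockout arrays were below both wild-type arrays. Cyp26a1 differed by -0.24 on the log2 scale (SE 0.269, and 0.124 with the block), with a blocked 95% interval of -0.53 to 0.04 (limma adjusted p = 1.00 and 0.9995). Within replicate 1 it was -0.04, and within replicates 2 and 3 it was -0.35, a fold of 1.27 lower (limma adjusted p = 0.995). The difference was negative in all 20 fits, several of which share 1 estimate, between -0.41 (without knockout replicate 1) and -0.09 (without knockout replicate 2).

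Of the receptors, Rarb, whose promoter is shown above, was read at low intensity. It was 1.74, 4.43 and 4.15 on the knockout arrays, against 1.46, 2.66 and 4.57 on the wild-type arrays. The replicate 1 arrays were the lowest of each genotype, the opposite of Aldh1a2. Rarb differed by 0.28 on the log2 scale (SE 0.582, and 0.288 with the block), with a blocked 95% interval of -0.37 to 0.94 (limma adjusted p = 1.00 and 0.9995). The pairs gave 0.26, 0.73 and -0.14, so no single direction was held.

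Rarg, the receptor known for its expression in the tailbud and presomitic mesoderm, read 15.1, 0.747 and 0.237 on the knockout arrays, against 12.6, 1.08 and 0.408 on the wild-type arrays. It lay above the array median on both replicate 1 arrays and on wild-type replicate 2, and below it on the other 3 arrays. Rarg differed by -0.35 on the log2 scale (SE 1.72, and 0.377 with the block), with a blocked 95% interval of -1.21 to 0.51 (limma adjusted p = 1.00 and 0.9995). The pairs gave 0.26, -0.53 and -0.78. Its sign turned to positive when knockout replicate 2 (0.09), knockout replicate 3 (0.92) or wild-type replicate 1 (1.06) was left out.

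The genes that retinoic acid induces through its receptors did not share 1 direction beside Aldh1a2. Dhrs3 and Rarb had positive differences (0.25 and 0.28) and Cyp26a1 a negative one (-0.24), and none of the 3 passed. A wider list of 31 genes known to respond to retinoic acid, mostly Hox genes and other transcription factors, has 23 measured members. None of these 23 (0 of 23) passed with or without the block. Mean log2 intensity in the knockout was above wild type in 14 and below it in 9, with a median difference of 0.15, beside -0.01 over all probes. Hoxb4, which responds to retinoic acid in the neural tube and paraxial mesoderm, read 93.8, 170 and 133 in the knockout, against 93.5, 109 and 111 in wild type (log2 difference 0.31). Hoxd4 averaged 3.35 in the knockout and 1.93 in wild type, below the array median on 3 arrays, with pair differences of 0.71, 0.14 and 2.40. Hoxa3 differed by -0.85, with pair values of 0.09, -1.73 and -0.90, and Bhlhe40, a repressor of the clock family of basic helix-loop-helix factors, by 0.51. At an unadjusted p under 0.05 the count was 0 of 23 without the block (0.657% of all probes) and 2 of 23 with it (3.75% of all probes), Hoxa3 and the meiotic gatekeeper Stra8 (-1.35), the second of which was named after its values were seen and averaged below the array median, at 0.305 in the knockout and 0.901 in wild type.

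The other genes of the retinoid pathway gave 0 calls in both fits. Of 52 listed retinol carriers, dehydrogenases, degrading enzymes, retinoid X receptors and receptor cofactors, 42 were measured, and 26 of these lay above the median level. Mean log2 intensity was higher in the knockout for 22 and lower for 20 of them (median difference 0.05). Cyp26b1, the relative of Cyp26a1 that clears retinoic acid in the limb bud and hindbrain, read 13.3, 25.9 and 22.4 in the knockout, against 9.69, 17.0 and 17.9 in wild type. Each knockout array was above the wild-type array of its number, while knockout replicate 1 was below wild-type replicates 2 and 3. The log2 difference was 0.46 (blocked 95% interval 0.13 to 0.80, limma adjusted p = 1.00 and 0.9995). The 2 degrading enzymes therefore had differences of opposite sign, neither of which passed.

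Among enzymes of the retinol step, the alcohol dehydrogenase gene Adh1 differed by 0.53 (2.95, 4.34 and 3.37 in the knockout, 1.87, 3.10 and 2.48 in wild type). Rdh16 differed by -0.37, with every knockout array (5.28 to 6.24) below the lowest wild-type array (6.25 to 9.54), and Rdh12 by 0.58 at low intensity. Groups without overlap were found for 1 of the 42 genes, beside 3.78% of all probes. Stra6, the membrane receptor that takes up retinol from its plasma carrier, was bright at 117, 206 and 212 in the knockout, against 125, 299 and 218 in wild type (-0.22). Of the alternative retinaldehyde dehydrogenases, Aldh1a1 averaged 0.479 in the knockout and 0.679 in wild type, and Aldh1a3 averaged 0.488 in the knockout and 0.380 in wild type, all below the array medians. Of the dimer partners, Rxrb read 29.0, 10.7 and 9.75 in the knockout, against 29.0, 9.08 and 13.2 in wild type (-0.07). At an unadjusted p under 0.05 the count was 0 of 42 without the block (0.657% of all probes) and 2 of 42 with it, a share near the 3.75% of all probes, Cyp26b1 and the dim gene Rarres2 (-1.24), the second of which was named after its values were seen, as were Stra6, Aldh1a1, Aldh1a3 and Rxrb.

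**Figure D3:**
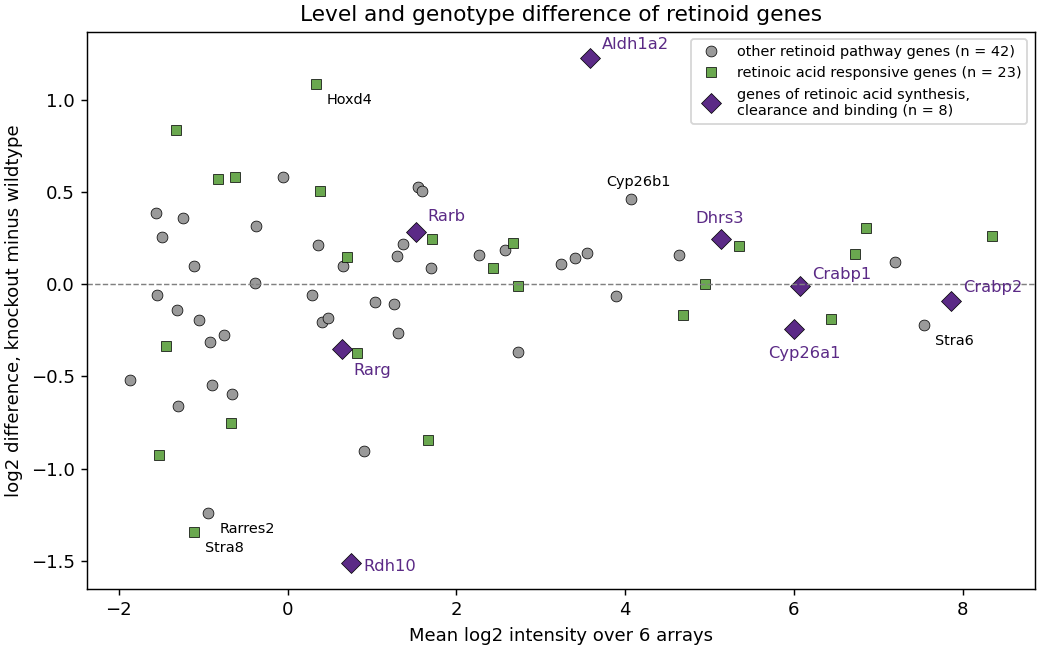
Mean log2 intensity over 6 arrays (horizontal axis) against the log2 difference of knockout minus wildtype (vertical axis) for the 8 genes, 42 other retinoid pathway genes and 23 retinoic acid responsive genes; each point is 1 gene. Differences beyond 1 in either direction belong to Aldh1a2 and Hoxd4 (positive) and to Rdh10, Stra8 and Rarres2 (negative), and the bright genes on the right lie near 0.

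The widest differences of these genes ran between replicate numbers and not between genotypes. On the replicate 1 arrays of both genotypes Rarg was on average 26.1-fold higher than on the other 4 arrays, Aldh1a2 6.99-fold, Rdh10 5.84-fold and Crabp1 3.57-fold. Dhrs3 and Cyp26a1 were 1.47-fold and 1.27-fold higher, Crabp2 was at 0.977 of the others, and Rarb was 2.43-fold lower. These are ratios of geometric means, given as a description with no test. In all probes 39.2% read higher on the replicate 1 arrays, with a median log2 difference of -0.33, and among the 16506 probes above the median level 61.8% did, with a median of 0.33. A difference at least as high as that of Rarg was found in 0.0606% of all probes and in 20 of the 16506 brighter ones, and for Aldh1a2 these figures were 2.27% and 725. Rarg therefore stands at the far end of the distribution, and the carriers and Cyp26a1 lie well inside it. On the other 4 arrays Rarg read only 0.237 to 1.08, near or below the array median, so the size of its fold is uncertain. Such a difference was not particular to Rarg. Of the 17 posterior markers 12 were higher on replicate 1, beside 61.8% of the brighter probes. Among them were Hes7 (38.5-fold) and Msgn1 (14.65-fold), both named after their values were seen. Hes7 read only 1.2 to 2.1 on the other 4 arrays, so the size of its fold is uncertain too. The remaining posterior markers were lower on replicate 1, Tbx6 among them (log2 difference -0.76).

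**Figure D4:**
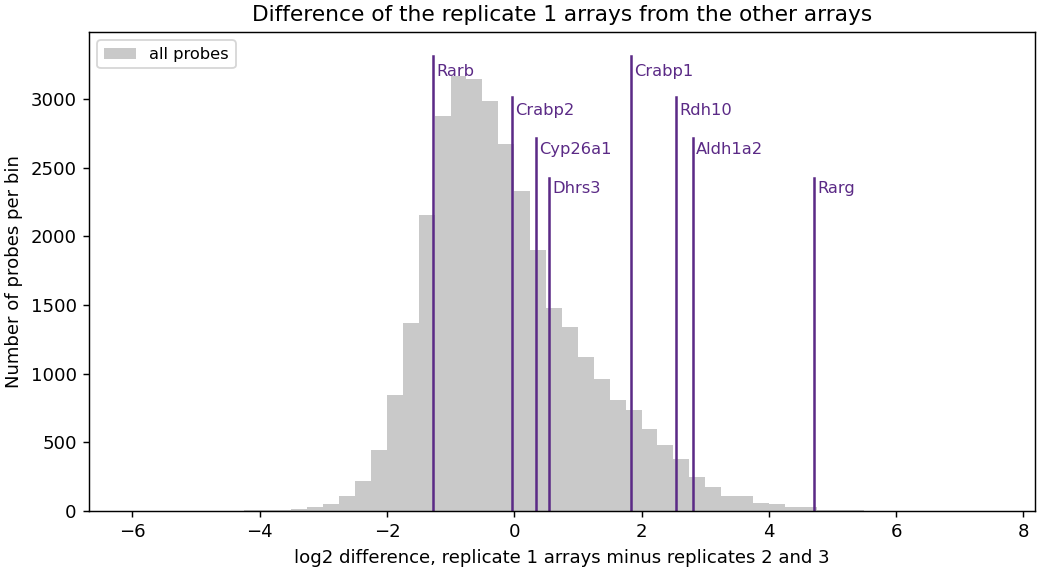
Distribution over all 33012 probes of the log2 difference between the 2 replicate 1 arrays and the 4 arrays of replicates 2 and 3 (bars, probes per bin of 0.25), with the 8 genes as vertical lines whose height only separates the names. Rarg is farthest to the right at 4.71, and Rarb is the only gene clearly to the left of 0, at -1.28.

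Marker lists were also read by replicate number. Beside their counts, 39.2% of all probes and 61.8% of those above the median level read higher on replicate 1. Of 17 posterior presomitic and tailbud markers, all above the median level, 12 read higher on the replicate 1 arrays, with a median log2 difference of 1.30. Their summed intensities were 1957 and 1887 on replicate 1 against 1773 to 1954 on the others. Of 15 somite and anterior markers 8 did (median 0.04), of 13 lateral plate markers 2 did (median -0.85), and of 9 intermediate mesoderm markers 5 did (median 0.05). Markers of other tissues differed as widely, with 9 of 12 endothelial (median 1.67), 7 of 10 surface ectoderm (0.87), 8 of 11 blood (0.74), 6 of 13 gut (-0.04) and 3 of 13 neural markers (-0.84) higher on replicate 1. The part of tissue boundaries, signal range or any batch in the replicate 1 values of Rarg, Aldh1a2, Rdh10 and Crabp1 was not tested.

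The 8 profiles over the arrays were not alike. Measured as the root mean square difference of log2 values centred on each gene's own mean, the closest were Cyp26a1 and Crabp2 (0.245) and Cyp26a1 and Dhrs3 (0.271), genes with narrow ranges. The farthest apart were the 2 receptors Rarb and Rarg (2.95). Aldh1a2 lay nearest to Crabp1 (0.791) and Rdh10 to Crabp1 (1.21), and the distance between the enzymes Rdh10 and Aldh1a2 was 1.64. For the 3 genes with the widest spread, the nearest profiles among 8649 other named genes above the median level were sought over the 6 arrays. They were Rhoc (0.290), Bcam (0.344) and Impdh1 (0.357) for Rarg. They were Zc3h7a (0.284), Zdhhc6 (0.297) and Klhl26 (0.340) for Rdh10, and Hira (0.327), Dynll2 (0.375) and Vhl (0.389) for Aldh1a2. None of these 9 genes belongs to the retinoid lists used here.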

How the data were processed

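Presomitic mesoderm RNA was labelled with digoxigenin and hybridised to 6 one-colour Applied Biosystems arrays, per the labels' protocols. The labels call the array human, but its probes were named through a mouse annotation. Each deposited value is 1 probe's linear intensity, brought by the authors to a median just under 1 on every array. How they scaled, subtracted background or filtered is not given in the sources used here, and background handling affects dim probes most. Of 33012 probes, 14411 had 1 gene, 247 several and 18354 were unnamed here. Symbols were updated through Entrez identifiers (GRCm38.p6 table).

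Intensities were converted to log2 with no offset or filter and tested across all probes with limma 3.58.1 in R 4.3.3 (lmFit, eBayes with an intensity trend, two-sided, Benjamini-Hochberg, threshold 0.05). The fits were run on simulated data with seeded changes, which set a requirement on the estimated differences and none on the number of calls. Replicate numbers occur in both genotypes, and a replicate block was fitted as an alternative. Deviations from the group means correlated by 0.757, 0.442 and 0.374 within numbers 1, 2 and 3, and by 0.419 and 0.397 across 2 and 3. These values set replicate 1 apart but do not tell 2 from 3, whose pairing follows the array numbers alone. The blocked errors, intervals and ranks rest on this pairing. The labels tie no number to a litter or day.

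The members and gene lists were chosen with earlier results of these data known. Named genes are the members, up to 4 genes of smallest p above the median level in each list, the 2 brightest markers of each list and the 3 nearest profiles; the rule also selects markers that are not described, and names outside it are marked as chosen after their values were seen. The closing section gives 19 refitted alternatives. Summaries used Python 3.11.15, pandas 2.3.3, numpy 2.4.6 and matplotlib 3.10.9.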

Additional observations from a re-analysis of the deposited data

How the results depend on the processing

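The number of probes called, 0 without the block, was 2 with the replicate block, alone, with probes above the median level or with quantile normalization, 2 in replicates 2 and 3 with and without it, 1 with array weights and 3 with the block and centring on 75th percentiles, but 0 with the block and no intensity trend, where the smallest adjusted p was 0.976. The fits that join the block with another scaling were chosen after seeing the data. Of the retinoic acid genes and of the other pathway genes, 0 were called under each of the 19 alternatives. Aldh1a2, Dhrs3, Cyp26a1, Crabp2 and Rdh10 kept their sign in all 20 fits. The block, the intensity trend and the choice of probes cannot change the estimate, so several of these fits repeat 1 value. Within the replicate 1 pair the log2 difference turned to 0.10 for Rdh10, 0.26 for Rarg and 0.033 for Crabp1, and that of Crabp1 also turned to 0.044 with centring on 75th percentiles, with and without the block. With single arrays left out, log2 differences ranged from -0.14 to 0.72 for Rarb, from -2.07 to 1.06 for Rarg and from -0.63 to 0.59 for Crabp1, and the cause was not tested. Other probes of a gene could not be tried, as each gene has 1. With 1 added to each value before log2, the difference was -0.78 for Rdh10 and -0.07 for Rarg, against -1.51 and -0.35 without it. Having 3 arrays a group and no detection flags limits what can be said of dim readings of Rdh10 and Rarg.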

Other observations

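Genes of the posterior tissue, whose FGF and Wnt signals oppose retinoic acid in the embryo, were read on the same arrays. With or without the block, 0 of 17 passed in limma (0 and 3 at an unadjusted p under 0.05), and mean log2 intensity was higher in the knockout for 6 and lower for 11 (median difference -0.05). In the blocked fit 3.75% of all probes reached that unadjusted threshold. The 3 genes were Sox2, the Wnt target Sp5 (-0.42) and the presomitic factor Tbx6 (0.23), whose knockout reading exceeded wild type for every replicate number. Sp5 was named after its values were seen. Sox2, a factor of neural and neuromesodermal progenitors, read 23.4, 7.35 and 8.96 in the knockout, against 28.0, 10.6 and 13.6 in wild type. It was lower in the knockout in each replicate pair, with a log2 difference of -0.46 (limma adjusted p = 1.00, and 0.9995 with the block). Rspo3, which potentiates Wnt signals, read 137, 127 and 138 in the knockout, against 150, 207 and 141 in wild type, so that the groups did not overlap (log2 difference -0.29). This held for 1 of the 17 genes, beside 3.78% of all probes. The homeobox genes Cdx4 and Nkx1-2 differed by -0.22 and 0.75, and Nkx1-2 had no single sign in its pairs (0.48, 2.04 and -0.27).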
